A study of Drosophila melanogaster with 2 samples.

Results

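The genes described here are the 6 members of the MCM2-7 family of Drosophila melanogaster, namely Mcm2, Mcm3, dpa, Mcm5, Mcm6 and Mcm7, where dpa is the fly gene for Mcm4. They are 6 of 13968 protein-coding genes and were chosen by name, not by their values. A gene was given a peak where the peak's summit lay inside the gene or within 1000 bp of one of its transcription start sites (TSSs). By this rule 4 of the 6 genes had at least 1 peak of Rfx-eGFP, the fusion of the transcription factor Rfx to a green fluorescent protein. The study was a chromatin immunoprecipitation sequencing experiment with 1 group of 2 biological replicates. Each was made from whole embryos aged 0 to 24 h of a transgenic line with an Rfx-eGFP insertion. The antibody was against GFP according to the labels' description, although the antibody field names Rfx. No condition was contrasted, and the control library was not analysed here. Embryos of all these ages and all their cell types were pooled, so more cells bearing the protein at a site and more protein per cell cannot be told apart.

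The MCM proteins form a ring of 6 different subunits that unwinds DNA ahead of the replication fork. The ring is loaded onto origins in an inactive form by the origin recognition complex with Cdc6 and Cdt1, which is called dup in flies. It becomes active when Cdc45 and the GINS proteins join it. MCM genes are known targets of E2F factors, which switch on genes for DNA synthesis as cells enter S phase. Rfx belongs to a family best known for regulating the genes of cilia through a palindromic site called the X-box, and it is not a textbook regulator of replication genes.

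All 6 genes are short, between 2627 and 3444 bp long on dm6, and 4 of them start next to a gene that runs the other way. Mcm2 (FBgn0014861; 3R, 8264970 to 8267924) has its start site 518 bp from that of RPA1, the large subunit of the single-strand binding protein of the fork. The gene dpa has 2 start sites, of which the outer one is separated by 1 bp from that of didum, which encodes a class V myosin. Mcm5 (FBgn0017577; 3R, 10788524 to 10791150) starts 297 bp from Art1, an arginine methyltransferase gene, and Mcm6 (FBgn0025815; X, 6674387 to 6677176) starts 413 bp from CG3198. Mcm3 (FBgn0284442; X, 5323855 to 5326738) has its divergent neighbour Rnp4F, an RNA-binding protein gene, at a gap of 1158 bp. Mcm7 (FBgn0020633; 3L, 8891596 to 8894310) has no divergent coding neighbour close by, and the antisense RNA gene asRNA:CR45871 overlaps it.

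The DNA upstream of 5 of the genes is printed to compare the 3 that had a peak with the pair that had none, each on the plus strand of dm6, which is also the strand of the gene. It was read from the RefSeq genome of the same build. Capitals mark every match to an X-box, a single X-box arm, a DREF site, a BEAF-32 site, an E2F site or a Motif 1 site, whose letters are given with the motif results. The Mcm2 stretch is the part of its peak before the start site, chr3R:8264786-8264969, with the summit at base 135. The Mcm5 stretch is the whole gap between the start sites of Art1 and Mcm5, chr3R:10788227-10788523, with the summit at base 29. The Mcm6 stretch is chrX:6674108-6674407, with the summit at base 143. The Mcm3 and Mcm7 stretches, chrX:5323655-5323856 and chr3L:8891396-8891595, begin 200 bp before the start site and held no summit. The Mcm6 and Mcm3 stretches run on past the start site, by 20 and 1 bp, to the end of an E2F site there. The Mcm2 stretch stops before the start site and so leaves out an E2F site farther inside the gene. The stretches are thus not like windows, and their capitals cannot be compared directly.
Mcm2: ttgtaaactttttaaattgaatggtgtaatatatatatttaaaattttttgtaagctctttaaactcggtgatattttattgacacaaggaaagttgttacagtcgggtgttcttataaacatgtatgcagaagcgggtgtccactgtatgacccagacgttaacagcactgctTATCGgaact
Mcm5: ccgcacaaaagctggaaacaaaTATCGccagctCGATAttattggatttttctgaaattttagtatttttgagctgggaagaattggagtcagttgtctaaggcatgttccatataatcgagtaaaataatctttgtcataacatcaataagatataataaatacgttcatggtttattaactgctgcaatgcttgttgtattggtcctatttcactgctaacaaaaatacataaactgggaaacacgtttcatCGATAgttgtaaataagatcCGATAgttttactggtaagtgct
Mcm6: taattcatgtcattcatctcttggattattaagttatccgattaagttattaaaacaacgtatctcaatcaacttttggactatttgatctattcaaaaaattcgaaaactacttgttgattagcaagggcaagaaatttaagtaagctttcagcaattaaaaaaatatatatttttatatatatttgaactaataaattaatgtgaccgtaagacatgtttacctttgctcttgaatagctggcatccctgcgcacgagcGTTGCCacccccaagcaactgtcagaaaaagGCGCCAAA
Mcm3: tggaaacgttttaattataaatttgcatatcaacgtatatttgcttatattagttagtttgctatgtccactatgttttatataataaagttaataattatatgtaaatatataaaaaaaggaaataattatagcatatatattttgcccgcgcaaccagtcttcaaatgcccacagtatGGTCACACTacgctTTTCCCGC
Mcm7: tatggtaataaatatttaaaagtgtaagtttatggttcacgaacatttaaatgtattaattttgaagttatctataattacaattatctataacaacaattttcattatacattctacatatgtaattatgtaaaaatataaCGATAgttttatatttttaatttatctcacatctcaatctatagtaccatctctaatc

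In the larger series-level set, which the authors called from both replicates and thresholded by the irreproducible discovery rate (IDR), Mcm2, dpa, Mcm5 and Mcm6 each had 1 peak, and Mcm3 and Mcm7 had none. By the same rule 43.0% of all protein-coding genes had a peak. With 6 genes, 4 is near that background. Of the 9247 peaks on the 7 chromosome arms, the MCM peaks ranked 819 (Mcm2), 953 (dpa), 4300 (Mcm5) and 7757 (Mcm6) by the authors' signal. The members thus spread from near the top of the set to well below its middle. Signal is the authors' enrichment value for a peak. Its scale is not given in the sources used here, so values were ranked within a list only, and a percentile is the percentage of peaks in that list at or below the value.

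**Figure D1:**
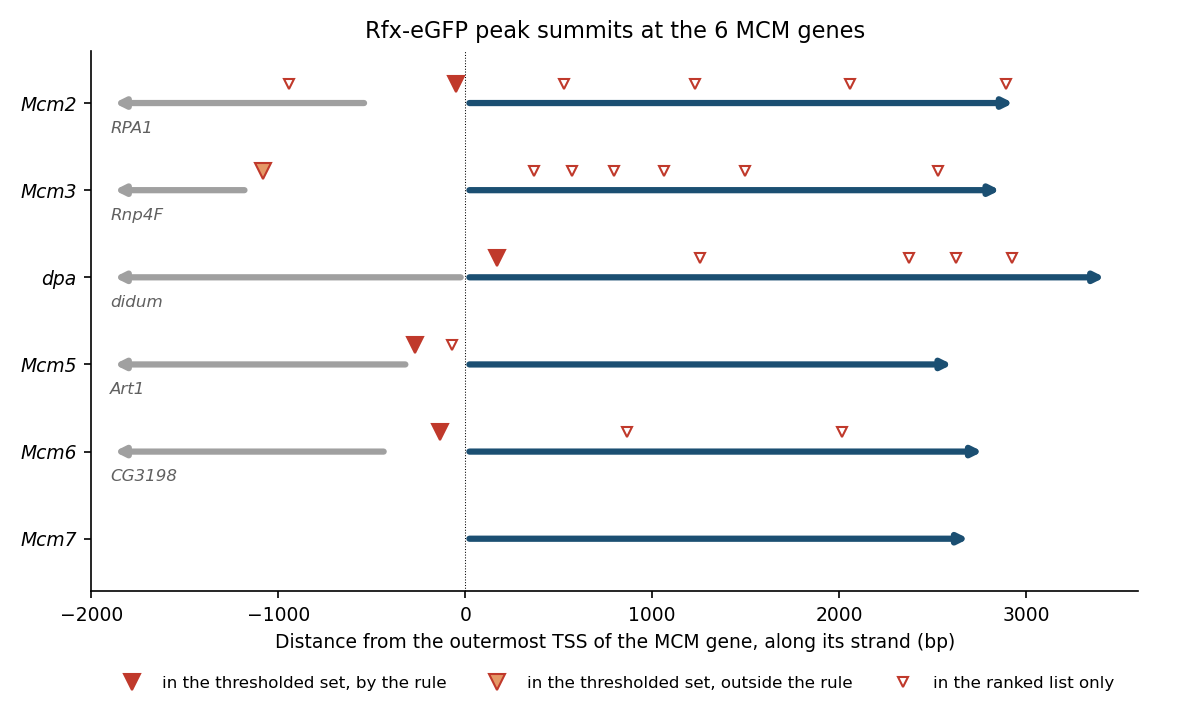
The x axis gives the distance in bp from the outermost TSS of each MCM gene along its strand, blue arrows are the MCM genes and grey arrows the divergent coding neighbours, drawn up to the left margin. Large red triangles are summits in the larger thresholded set, the orange one is the Rnp4F summit outside the rule, and small open triangles are summits of the ranked list that missed the threshold. The 4 passing summits lie between -269 and 172 bp.

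Mcm2, which with Mcm5 forms the gate through which the ring opens, had the strongest MCM peak. Its peak on 3R, from 8264786 to 8265050, had a signal of 445, at percentile 91.2, and its summit lay 50 bp upstream of the start site. Replicate 1 gave a signal of 322 and replicate 2 a signal of 139, at percentiles 90.5 and 81.0 of their own thresholded sets (mean 85.8 ± 6.71, SD, n = 2). The summit lay at -52 bp in replicate 1 and at -30 bp in replicate 2. Both replicates thus placed a strong peak in the same stretch just before the start of Mcm2. The nearest other TSS was that of RPA1 at 469 bp, and the RPA1 gene received the same peak by the rule.

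The dpa peak was nearly as strong, and the replicates matched most closely there. The gene (FBgn0015929) lies on 2R from 7496702 to 7500145, and its peak, from 7499865 to 7500094, had a signal of 403 at percentile 89.7. Replicate 1 gave 261 and replicate 2 gave 148, at percentiles 86.6 and 82.8 of their thresholded sets (mean 84.7 ± 2.62, SD, n = 2), with the summit at the same base in both. The summit of the series-level set lay 172 bp inside the longer transcript, in its first exon, and 96 bp upstream of the inner start site of dpa. The nearest other TSS, that of didum, was 174 bp away. In replicate 2 the dpa peak was stronger than the Mcm2 peak, and in replicate 1 it was weaker, so the order of these genes differed between the replicates.

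Mcm5 had a peak of middling strength that lay closer to its neighbour. Its signal was 128 at percentile 53.5, in a peak on 3R from 10788083 to 10788426. Replicate 1 gave 79.3 and replicate 2 gave 46.5, at percentiles 39.6 and 13.4 of their thresholded sets (mean 26.5 ± 18.6, SD, n = 2). The gene passed the authors' threshold in each replicate, but near the bottom of the set in replicate 2. The summit was 269 bp upstream of Mcm5 and 29 bp upstream of Art1. The replicates' summits were 59 bp apart, at -264 bp in replicate 1 and at -323 bp in replicate 2, and the replicate 2 summit lay inside the Art1 gene. A weaker summit nearer to Mcm5, at -70 bp with a signal of 60.1, stood in the series-level ranked list with an IDR of 0.629, against 0.000142 for the peak at Art1.

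The Mcm6 peak was weak and rested on the series-level set alone. It lay on X from 6674078 to 6674421 with a signal of 72.4 at percentile 16.1, an IDR of 0.00401 and a summit 137 bp upstream of Mcm6 and 277 bp upstream of CG3198. The deposited score, the IDR on a scale where 1000 is best, was 995 for this peak and 1000 for the other MCM peaks, and the lowest score in the set was 830. Replicate 2 listed the peak at -144 bp with a signal of 23.9 and an IDR of 0.204, which missed the threshold. Replicate 1 listed no summit by the rule at Mcm6, even in its ranked list of 80246 peaks, and its nearest ranked summit was 3898 bp from the start site. The conservative set, a smaller series-level set that the authors also deposited, held no Mcm6 peak. The peak thus stood in 1 of the 4 thresholded sets.

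Mcm3 and Mcm7 had no thresholded peak in any of the 4 thresholded sets. At Mcm3 the nearest thresholded summit was just outside the rule, 1080 bp upstream, where a peak with a signal of 288 at percentile 82.8 lay 79 bp upstream of Rnp4F. Replicate 1 placed that summit 1094 bp and replicate 2 placed it 1081 bp upstream of Mcm3, with signals of 189 and 101. Both thus gave it to the start of the neighbouring gene. Inside Mcm3 the series-level ranked list held 6 summits with signals of at most 33.6 and IDRs of at least 0.300. At Mcm7 the nearest summit of the larger set was 20997 bp away, and that of the replicate 2 set 20959 bp away. Replicate 1 alone ranked a summit 250 bp upstream of Mcm7 with a signal of 40 and an IDR of 0.574, and another inside the gene with 30.2 and 0.224, while replicate 2 and the series-level lists ranked none there.

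**Figure D2:**
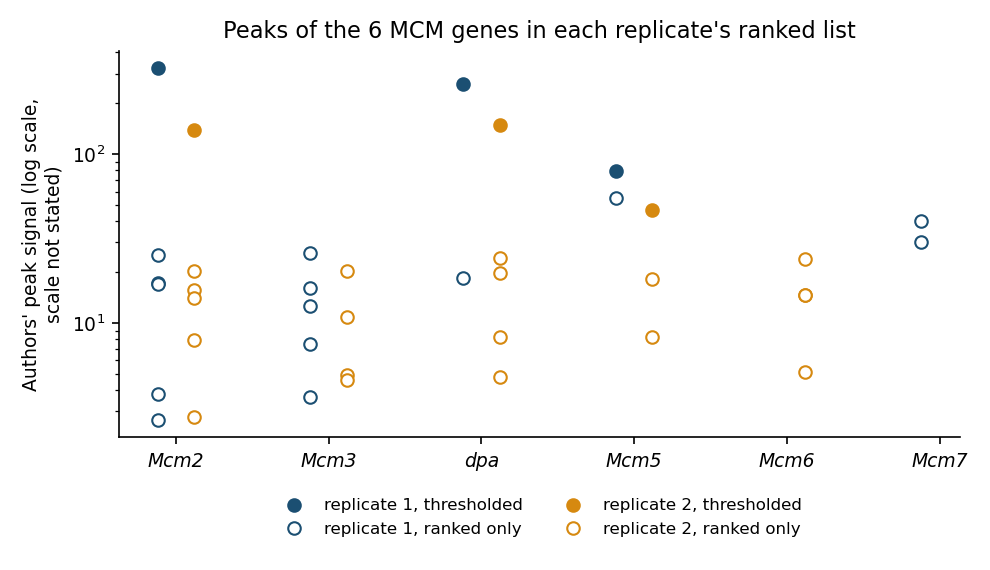
Each point is 1 peak assigned to an MCM gene in a replicate's ranked list, with the authors' signal on a log axis of unstated scale, blue for replicate 1 and orange for replicate 2. Filled points also stood in that replicate's thresholded set: they are the peaks of Mcm2, dpa and Mcm5 in both replicates, and Mcm6 has open points in replicate 2 alone.

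In the full ranked lists, which hold candidate peaks of any IDR, the promoter summits of Mcm2 and dpa stood well above the rest of each locus. Mcm2 had 6 ranked summits in replicate 1 and 6 in replicate 2. Beside the promoter peak the highest signal there was 25.1 in replicate 1 and 20.4 in replicate 2, at 553 and 538 bp inside the gene. At dpa the next signals were 18.5 and 24.1. At Mcm5 the gap was smaller in replicate 1, where the second summit had 55.0 against 79.3 for the first. The promoter summits of Mcm2, dpa and Mcm5 stood at percentiles 98.8 ± 0.576, 98.7 ± 0.241 and 93.6 ± 2.17 of the replicates' ranked lists (SD, n = 2). Since a thresholded set holds only the strong end of its ranked list, with 6953 of 86098 peaks in replicate 2, the 92.0 of Mcm5 in that replicate says little more than that it passed.

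The stronger MCM peaks were narrower than most peaks. The Mcm2 peak was 265 bp and the dpa peak 230 bp wide, and those of Mcm5 and Mcm6 were both 344 bp, the width of 70.6% of all peaks in the set. In replicate 2 the Mcm2 and dpa peaks were 177 and 130 bp wide, against a most common width of 324 bp. A narrow peak was not particular to the MCM genes. Among other replication genes the strong peaks at dup, Cdc7 and PolD2 were also below the most common width in the larger set, and that at chif was not. In position the members were ordinary. Their summits lay between 50 and 269 bp upstream of the nearest start site of the gene, while over the 6003 protein-coding genes with a peak the strongest summit had a median offset of -79.0 bp (quartiles -236 and 25 bp), and 72% lay upstream. The summit was nearer to a TSS of another gene at Mcm5, 1 of the 4, and at 35.0% of all genes with a peak.

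The members with a peak were those with a divergent coding TSS within 1000 bp upstream. Mcm2, dpa, Mcm5 and Mcm6 have such a TSS within 1000 bp upstream, and all 4 had a peak. The partners RPA1, didum, Art1 and CG3198 each received the same peak by the rule. The remaining members, Mcm3 and Mcm7, have none that close and had no peak by the rule. For Mcm3 the same limit of 1000 bp decided both. Its divergent neighbour Rnp4F starts 1158 bp away, and the peak at Rnp4F lay 1080 bp upstream of Mcm3. The split among the members thus depends on that limit, and by overlap of the peak Mcm3 was counted too. Over the genome a peak was found at 64.0% of the 5052 protein-coding genes with a divergent coding TSS within 1000 bp and at 31.1% of the 8916 without one, in the direction seen among the members. Of the other replication genes, 18 of 31 with such a TSS and 11 of 20 without one had a peak, a much smaller gap. By the gap between the start sites, the share with a peak was 61.6% of 1980 genes up to 250 bp, as at dpa, 69.5% of 1835 genes from 250 to 500 bp, as at Mcm5 and Mcm6, and 59.7% of 1237 genes from 500 to 1000 bp, as at Mcm2. A gene in such a pair can take a peak from either start site under this rule, and the part of this in the difference was not tested. The comparison was chosen after the values of the members were seen.

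Mcm6 was lost in every other thresholded set, and Mcm5 depended on the gene rule. The conservative set and the sets of replicate 1 and replicate 2 alone each gave Mcm2, dpa and Mcm5, or 3 of 6, against 36.8%, 35.3% and 36.5% of all protein-coding genes. All of these genes passed in both replicates' own sets, as did 29.9% of all protein-coding genes. Keeping only peaks with a score of 1000 gave the same 3 genes, against 39.9%. With summits within 500 bp of a TSS and the gene body left out, the count was 4, against 35.4%. Within 250 bp it was 3, against 30.1%, and Mcm5 was lost. Giving each peak to its nearest TSS only also left 3 and lost Mcm5, against 31.6%. Counting any overlap of the peak with the gene or its 1000 bp margin added Mcm3 through the Rnp4F peak and gave 5, against 44.3%. Any peak of the ranked list, with no threshold, also gave 5, against 84.4%. Mcm2 and dpa alone had a peak under every one of these rules, and Mcm7 under none.

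**Figure D3:**
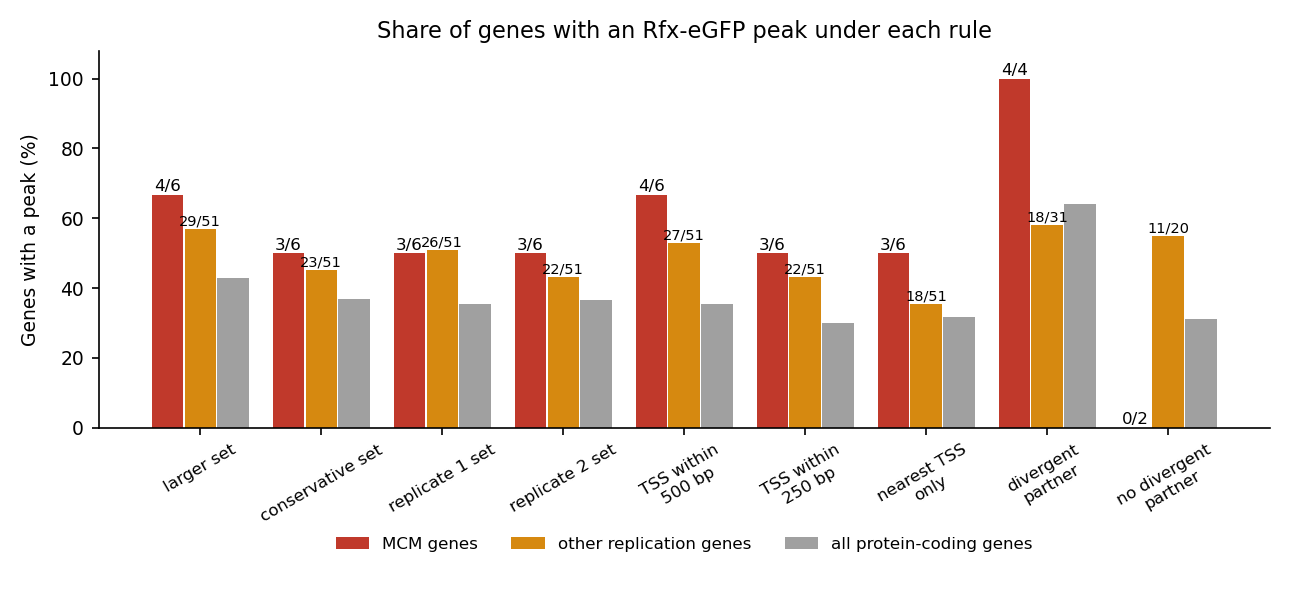
Bars give the percentage of genes with a peak for the MCM genes (red, with counts), the other replication genes (orange, with counts) and all protein-coding genes (grey) under each peak set or gene rule. The split by divergent partner has 4 and 2 MCM genes, and the other rules have 6 each, with 4 of 6 in the larger set against 43.0% of all genes.

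No X-box was found at the MCM summits. Exact matches were sought on both strands within 100 bp of each summit. Promoters were taken from 250 bp before to 50 bp after the outermost start of each protein-coding gene. The strict X-box, found at 0.757% of all 9247 summits and in 0.888% of all these promoters, was at none of the 4. Neither was GGCAAC, the letters of 1 arm of that palindrome, which is at 13.2% of summits and in 17.8% of promoters. That arm did lie in the promoters of Mcm6, 122 bp from the summit (the first capitals in the Mcm6 stretch), and of dpa, 142 bp from the summit. The absence of these letters from these windows says nothing of how Rfx-eGFP came to be recovered there.

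E2F sites were sought in 3 forms, TTTCCCGC, TTTGGCGC and TTTCGCGC. Within 100 bp of the summit they were at Mcm2 and dpa, 2 of the 4 genes with a peak. In the promoter window at the outermost start they were in Mcm2, Mcm3 and Mcm6, 3 of the 6 genes. At dpa a TTTGGCGC lay 12.5 bp and a TTTCCCGC 93.5 bp from the summit, centre to summit. Both were outside that promoter window but close to the inner start site of dpa, which was not searched as a promoter. Their centres lay at -83.5 and -2.5 bp from it, and the TTTCCCGC ran across it. At Mcm2 a TTTCCCGC lay 89.5 bp from the summit, inside the gene on 3R from 8265006 to 8265013. In Mcm3, which had no peak, a TTTCCCGC ran across the start site, the last capitals of its stretch. In Mcm6 a TTTGGCGC lay just inside the gene on the opposite strand, 154 bp from the summit. Any of the 3 forms was found at 3.26% of all summits, at 3.84% of the 5363 summits within 1000 bp of a coding TSS, and in 4.83% of promoters. The sites occurred both where there was a peak and where there was none, and with 6 genes the shares were not compared by a test.

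Other promoter elements were spread unevenly. The letters CGATA, a known site of the insulator protein BEAF-32, lay within 100 bp of the summit at Mcm2 and Mcm5. In Mcm5 a pair of these sites in opposite orientation flanked the summit at 4 and 7 bp, and another pair, in the same orientation, lay at -41 and -21 bp from the Mcm5 start site (the 4 sets of capitals in its stretch). The site is common, at 31.0% of all summits and in 47.3% of promoters, and it was also in the Mcm7 promoter. The DREF site TATCGATA, which contains the BEAF-32 letters and is known from promoters of fly replication genes, was at none of the 4 summits and in none of the 6 promoters (4.82% of summits and 9.36% of promoters). The Motif 1 site GGTCACACT, found in 6.04% of promoters, was in that of Mcm3. A TATA box sequence, TATAAA, was near the summits of Mcm2 and Mcm6 and at 28.0% of all summits. In the promoter window it was in 5 of the 6 genes, all but Mcm5 and thus including Mcm3 and Mcm7, and in 45.8% of all promoters. The centres of these matches lay between -182 and -48.5 bp from the outermost start, on either strand, and whether any acts as a TATA box was not tested. The E-box CACGTG (2.28%) and the GAGA repeat GAGAGA (10.9%) were at none of the 4.

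The other genes of the replication machinery, in 11 lists by role, were described beside the MCM genes. Of 51 genes 29 had a peak, or 56.9%, against the 43.0% of all protein-coding genes. These genes also have a divergent coding partner more often, 31 of the 51, against 36.2% of all protein-coding genes. With a partner 18 of 31 had a peak, against 64.0% of all such genes, and without one 11 of 20 had a peak, against 31.1%. In these counts the excess over all genes was among those without a partner. That group has only 20 genes, the split was added after seeing the data, and the difference was not tested. Their strongest peaks lay between percentiles 13.9 and 99.1 with a median of 63.6, and over all 6003 protein-coding genes with a peak the median was 69.0. In both replicates' own sets 20 of the 51 had a peak, against 29.9% of all protein-coding genes. The strongest summit was nearer to a TSS of another gene at 12 of the 29, against 35.0% of all protein-coding genes with a peak. Mcm2 and dpa thus stood high, and Mcm6 low, among replication genes with a peak.

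Among the genes for loading the ring and its control, 2 of 6 origin recognition genes had a peak, and 2 of 3 for loading and its inhibitor. The share of all protein-coding genes was 43.0%, and the values differed widely. The origin recognition complex, which marks origins, had peaks at Orc1 (signal 161, percentile 63.6) and Orc3 (76.5, percentile 20.0), and none at Orc2, Orc4, Orc5 and Orc6. The gene dup, which encodes the loader Cdt1, had a signal of 395 at percentile 89.3, close to the values of Mcm2 and dpa. Its summit was 30 bp from the TSS of SRPK and 80 bp upstream of dup. The gene geminin, whose product inhibits Cdt1, had 239 at percentile 77.6 with its summit 29 bp upstream, and Cdc6 had no peak. Both dup and geminin had a peak in each replicate's own set.

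Of the 5 genes for partners that complete the helicase, 3 had a peak, against 43.0% of all protein-coding genes. Among Cdc45 and the GINS genes, Psf3 had a signal of 153 (percentile 61.4), Psf1 149 (60.2) and Cdc45 73.4 (16.9), and Sld5 and Psf2 had none. Of these, Psf3 had a peak in both replicates' own sets. The Psf1 and Cdc45 summits were nearer to the TSSs of Sac1 and Rpp21. The genes that activate the helicase had 4 of 7 with a peak, against the same 43.0%. The highest value of all the lists was that of chif, the regulatory partner of the Cdc7 kinase, with a signal of 1411 at percentile 99.1 and a summit at -972 bp from its nearest TSS. Cdc7 itself had 338 (percentile 86.4) at a summit 1628 bp from its nearest TSS, and CycE, the S phase cyclin, had 247 (78.5). The genes without a peak were Mcm10, mus101 and RecQ4, although the conservative set held a peak at mus101.

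The enzymes of DNA synthesis were mixed. Polymerase alpha-primase, which lays down primers, had peaks at PolA1 (signal 170, percentile 66.0), PolA2 (141, percentile 57.7) and Prim1 (122, percentile 50.9), and none at Prim2. Of the genes for polymerases delta and epsilon, PolD2 (727, percentile 96.2), PolE4 (173, percentile 66.8) and PolE1 (98.7, percentile 38.4) had a peak. PolD1, PolD3, PolE2 and Chrac-14 had none in the larger set, and the set of replicate 1 alone held 1 at Chrac-14. The sliding clamp gene PCNA, a classic E2F target, had 131 (percentile 54.7) at a summit 33 bp upstream, and the related PCNA2 had 256 (percentile 79.4). The summits at PolA2, Prim1 and PCNA2 were nearer to the TSSs of other genes, namely CG31064, CG7083 and CG10366. Of the clamp loader genes CG8142 had 707 (percentile 96.0), and RfC3, RfC4, RfC38 and Gnf1 had no peak, except that the set of replicate 1 alone held 1 at RfC38. Among the single-strand binding genes, RPA1 had only the peak that it shares with Mcm2, and RPA2 and RPA3 had none.

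The lists for finishing and protecting the new strands were the only ones of the 11 in which every gene had a peak in the larger set, against 43.0% of all protein-coding genes, and this did not hold in the other sets. They were the 3 matched Okazaki maturation genes and all 5 genes listed under fork protection, tim and timeout included. The Okazaki maturation genes were rnh1 (signal 140, percentile 57.5), Dna2 (104, percentile 41.6) and Fen1 (78.1, percentile 21.5). The highest fork protection values were CG10336 (286, percentile 82.6), Ctf4 (274, percentile 81.3) and the checkpoint gene Claspin (218, percentile 75.1). The summits at Fen1, CG10336, Ctf4 and rnh1 were nearer to the TSS of a divergent neighbour, namely Dek, msl-1, CG8067 and drosha. Fork protection had 3 of 5 in the conservative set and in each replicate's own set. Okazaki maturation had 1 of 3 in the conservative set, 2 in the set of replicate 1 and 1 in that of replicate 2. Fen1, tim (72.7, percentile 16.3) and timeout (70.3, percentile 13.9) had no peak in any other thresholded set. The last 2 were named after their values were seen. The gene tim is best known in flies for the circadian clock, and its place in a fork protection list was not checked here. The MCM relative rec, a fly meiotic recombination gene of the same family, had no peak.

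**Figure D4:**
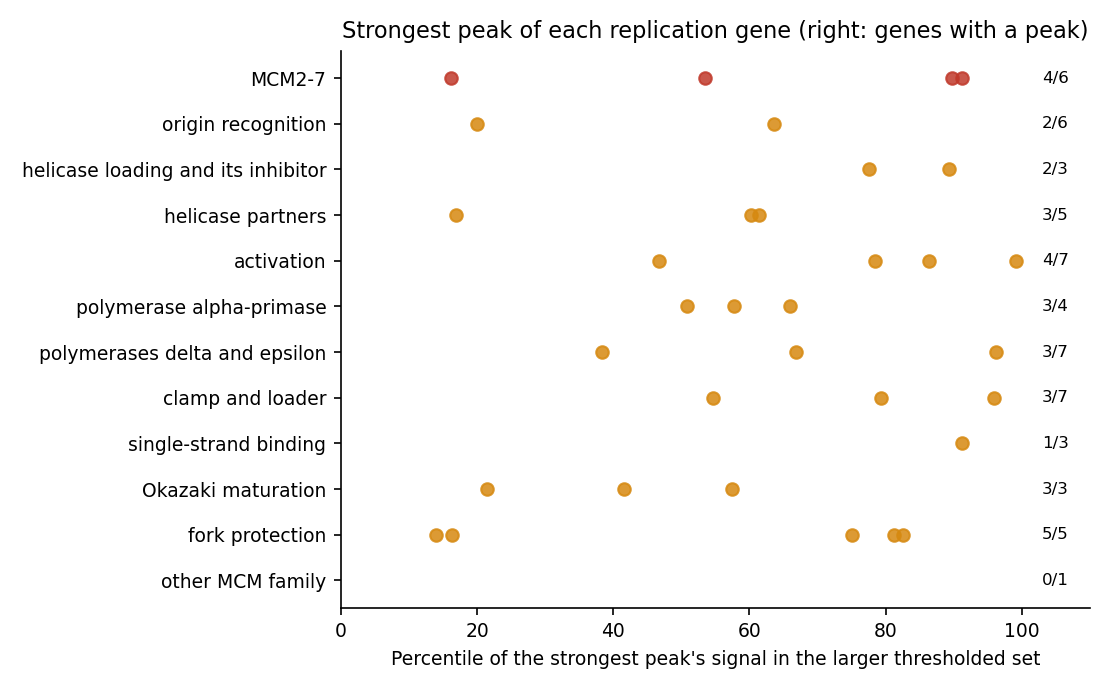
Each point is the strongest peak of 1 gene, placed by the percentile of its signal in the larger thresholded set, with the MCM genes in red on top and 11 lists of other replication genes in orange below; the counts at the right give genes with a peak over genes in the list. The MCM points lie at 91.2, 89.7, 53.5 and 16.1.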

How the data were processed

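Peaks of 2 biological replicates, which form 1 group, were analysed. Per the labels, chromatin was sonicated to 200 to 800 bp and the build is dm6. The authors called peaks and, judging from the values, deposited for each a signal, a score (the IDR rescaled to whole numbers, at most 1000) and, in the ranked lists, minus log10 of the IDR (-log10 scale, limit 5). The sources used here name neither aligner nor peak caller. The files hold no counts, so depth is unknown. The series-level lists also hold 16 columns of values of the compared inputs, which were not used. Peaks on 7 arms were kept, which left out 3 of the larger set. Genes came from Ensembl release 115 (BDGP 6.54), sequence from RefSeq's genome of the same build. A percentile is the share of a list's peaks at or below a signal. Older symbols were matched through synonyms, and 1 of the replication symbols, Lig1, was unmatched. All 6 members, their neighbours, and, from each list, the 3 top genes by signal and every gene lacking a peak were named, with exceptions stated. The members, lists and motifs were chosen with earlier results of these data known. No test was made. Gene assignment and motif search were tested on simulated data. Alternatives were other peak sets, each replicate alone, a stricter score, other windows and assignments, other reference groups for percentiles, and other motif windows. Python 3.11.15 and numpy 2.4.6 were used.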

Additional observations from a re-analysis of the deposited data

How the results depend on the processing

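The MCM count of 4 ranged from 3 to 5 over the other peak sets and gene rules, and was 3 in the set of each replicate alone. Among the members with no divergent coding TSS within 1000 bp upstream, a split added after seeing the data, it was 0 of 2. The count of 29 other replication genes was 22 and 26 in the sets of replicates 2 and 1 alone. It fell to 18 with assignment to the nearest TSS and was 49 in the ranked list without a threshold. Percentiles were compared over the settings in which a member had a peak, with the ranked lists left out. Some settings changed the reference instead, ranking the peak among peaks near a coding TSS or among genes with a peak. They ranged from 81.0 to 91.2 for Mcm2, from 80.7 to 89.7 for dpa, from 13.4 to 53.5 for Mcm5 and from 6.25 to 16.1 for Mcm6. Mcm2 and dpa had 11 such settings, Mcm5 had 9 and Mcm6 had 7. Settings that changed only the gene rule kept the same peak in the same set. They repeat its percentile by construction and are no check on it. Replicate 2 alone gave the lowest value of Mcm2 and Mcm5. Ranking among genes with a peak gave the lowest value of dpa and Mcm6. The 7 pairs of a member and a motif near its summit became 11 with 1 mismatch allowed and between 5 and 9 in other windows. The mismatch was allowed only in the DREF, E2F and Motif 1 sites. All other motifs, both X-box forms included, were still searched exactly. Not every added pair was a new site, since the TTTCCCGC at Mcm2 then also counted as TTTCGCGC. No paired analysis was possible because the series has 1 group. With unknown depth and 2 replicates, a missing peak at Mcm3, Mcm6 or Mcm7 is not shown to be an absence of Rfx-eGFP.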
